A study of Mus musculus with 6 samples.

Results

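The genes described here encode the proteins of the cytosolic ribosome, and they were selected by symbol, as the names that start with Rpl, Rps or Rplp and a number and that are neither pseudogenes nor S6 kinases. Of the 34245 genes measured, 83 met this rule: 46 genes of the large subunit, 30 genes of the small subunit and 7 paralogs. RNA-seq was performed on 3 peripheral T-cell lymphomas (PTCL), each a bulk lymph node sample of an FVB mouse with germline inactivation of 1 Dnmt3b allele (Dnmt3b+/-). The ages of these mice are not given in the sources used here. No control tissue was analysed here, so that the tumors were compared only with each other. Because the 3 tumors form 1 group, no test was possible and every comparison is descriptive.

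The cytosolic ribosome is built from rRNA and proteins, and most of the proteins are needed in similar amounts. Most of the mRNAs begin with a C and a run of pyrimidines at the start site, the TOP motif, through which mTOR signaling and the protein Larp1 control their translation. In lymphocytes ribosome production increases with activation and growth, and loss of single ribosomal proteins is known to affect T-cell development and the p53 response.

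Expression is given as FPKM, the fragments on a gene per kilobase of its merged exons and the depth of the library, counted in units of 1000000 fragments. Library depth, recovered from the values of genes without a read, was 30726570 reads for tumor 1, 18969988 for tumor 2 and 20770928 for tumor 3. Each of the 76 subunit genes rested on 1082 to 91899 reads per tumor, so that counting error was small against most differences between tumors. The order of tumors 1 and 2 was near that error for genes such as Rpl9 and Rpl28, which were named after their values were seen. Dnmt3b itself had 0.975, 1.55 and 1.25 FPKM in tumors 1, 2 and 3. These values cover both alleles and do not check the genotype.

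The T-cell label was checked first. All 8 T-cell markers were expressed, led by Cd8b1 with 435, 166 and 443 FPKM in tumors 1, 2 and 3. Cd8a followed with 259, 122 and 218 FPKM, and both genes were lowest in tumor 2. Trac, Cd3g and Cd3e, named after their values were seen, were instead highest in tumor 2, with 165, 213 and 182 FPKM for Trac, 78.8, 106 and 91.8 FPKM for Cd3g, and 56.4, 78.1 and 65.3 FPKM for Cd3e. Cd4 varied most, with 28.4, 4.28 and 8.22 FPKM. The summed level of the list was 1327, 928 and 1378 FPKM, with tumor 2 lowest, but the markers did not share this order. Of the 8, tumor 1 had the highest value for 3, tumor 2 for 3 and tumor 3 for 2.

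Ribosomal protein genes made up a large and uneven part of the transcriptome of the tumors. Their summed FPKM, as percent of that of all genes, was 15.2% for tumor 1, 20.8% for tumor 2 and 29.6% for tumor 3. The mean share was 21.9% ± 7.25 (SD, n = 3). Tumor 3 was therefore the highest and tumor 1 the lowest. Counted as recovered reads, which gives short genes less weight, the shares were 7.35% (95% Wilson interval 7.34 to 7.36), 10.2% (10.1 to 10.2) and 16.1% (16.1 to 16.1). These intervals and all others given here cover counting error only. Among the 100 genes with the highest FPKM, 52 were ribosomal protein genes in tumor 1, 51 in tumor 2 and 59 in tumor 3. In these bulk samples a smaller number of cells of a type and less RNA per cell cannot be told apart.

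An average of at least 1 FPKM over the tumors was reached by 80 of the 83 genes, and the 3 others were the paralogs Rpl39l, Rpl10l and Rpl3l. Among these 80 genes, 73 were highest in tumor 3, compared with 15.7% of all 11197 genes that averaged at least 1 FPKM. In tumor 1, 5 were highest, against 50.6% of all genes, and in tumor 2, 2 were highest, against 33.7% of all genes. Tumor 1 was lowest and tumor 3 highest for 58 of the 80 genes, which held for 7.56% of all genes. No subunit gene was lowest in tumor 3, whereas 37.4% of all genes were.

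The highest tumor exceeded the lowest at least 2-fold for 53 of the 80 genes, against 34.4% of all genes. Without tumor 1 this number was 8, and without tumor 3 it was 19, while without tumor 2 it was 47. The shares of all genes were not counted for these pairs in both directions, so that these numbers are not read as particular to ribosomal protein genes. Tumor 3 reached at least 2 times the FPKM of tumor 1 for 47 of the 80 genes, against 4.45% of all genes. Tumor 2 reached 2 times tumor 1 for 15 of them, against 10.1% of all genes. Tumor 3 reached 2 times tumor 2 for 8 of them, against 5.11% of all genes. Most of the large differences thus lay between tumors 1 and 3. With each tumor rescaled to the same total FPKM, which multiplies tumor 3 by 0.843 and tumor 2 by 0.912 relative to tumor 1, 35 genes reached the 2-fold difference and 68 were highest in tumor 3. With median-of-ratios factors, which move the tumors the other way, these numbers were 67 and 76. The scalings move all genes too, and shares of all genes were not counted under them. These numbers can therefore not be set against the shares given above.

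**Figure D1:**
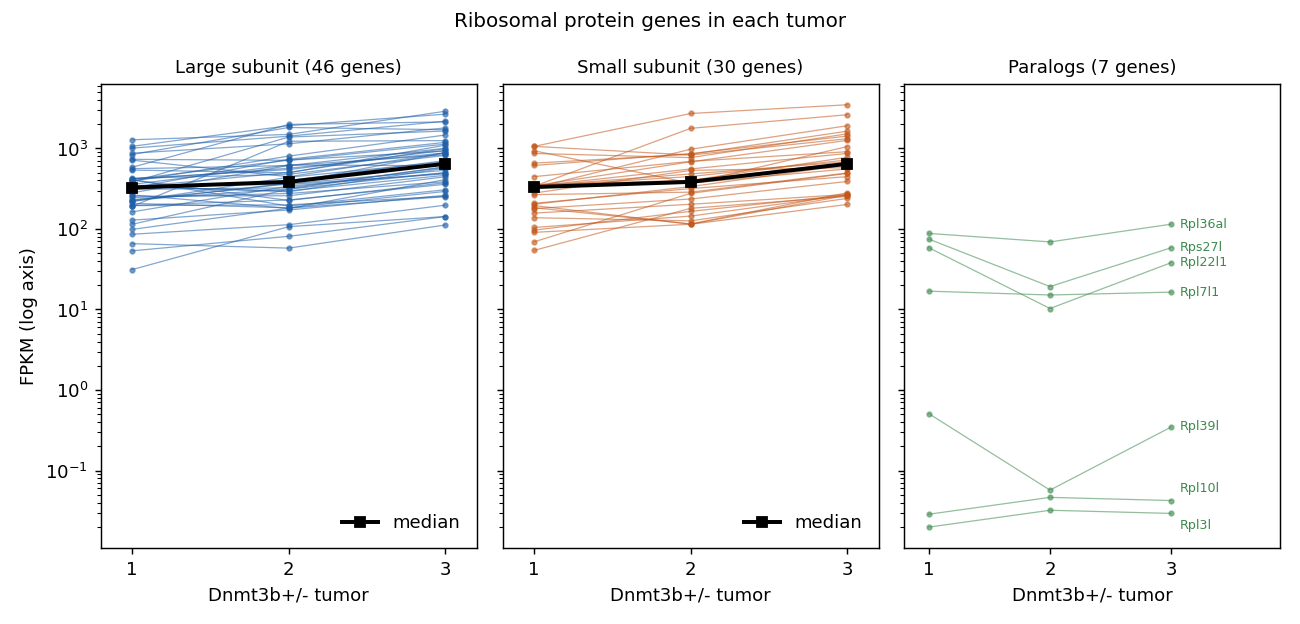
FPKM of 46 large subunit genes, 30 small subunit genes and 7 paralogs in tumors 1, 2 and 3, on a log axis. Each thin line joins the values of 1 gene, and black squares are the medians, which were 327, 385 and 646 FPKM for the large subunit and 331, 384 and 645 FPKM for the small subunit.

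The genes of the large subunit had medians of 327, 385 and 646 FPKM for tumors 1, 2 and 3. Those of the small subunit were at 331, 384 and 645 FPKM. The subunits were thus nearly equal in each tumor and differed between tumors together. The median of the large subunit divided by that of the small subunit was 0.987, 1.00 and 1.00 in tumors 1, 2 and 3, and 0.987 when the FPKM of each gene was first averaged over the tumors. Across all genes that averaged at least 1 FPKM, the median was 6.16, 5.39 and 5.04 FPKM, lowest in tumor 3.

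On the log2 scale, the median ratio of tumor 3 to tumor 1 was 1.09 for the 80 ribosomal protein genes and -0.24 for all 11197 genes, a difference of 1.33. The quartiles of the ribosomal protein genes were 0.77 and 1.48, and those of all genes were -0.62 and 0.13, so that the middle parts of these distributions did not overlap. For tumor 2 over tumor 1 the medians were 0.40 and -0.18, a difference of 0.57, and the quartiles overlapped. The value of 0.40 was 0.26 with each tumor rescaled to the same total FPKM and 0.57 with median-of-ratios factors, a comparison added after seeing the data. For tumor 3 over tumor 2 they were 0.69 and -0.06, a difference of 0.75. Of the 76 subunit genes, 74 had a higher FPKM in tumor 3 than in tumor 1, 60 in tumor 2 than in tumor 1, and 74 in tumor 3 than in tumor 2. The median of all genes was below 0 in each of these comparisons, so that most of all genes went the other way. Because FPKM is scaled to library depth, a larger share of ribosomal protein reads by itself lowers the values of other genes in these comparisons. These comparisons share tumors and are not independent of each other.

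**Figure D2:**
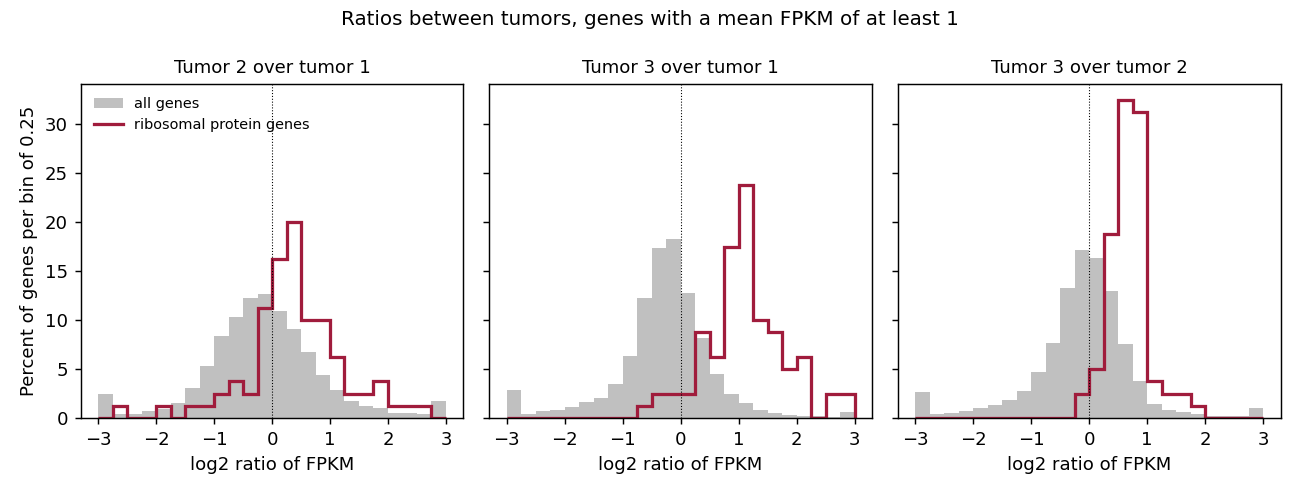
Log2 ratios of FPKM between tumors for all 11197 genes that averaged at least 1 FPKM (gray) and for the 80 ribosomal protein genes among them (red line), as percent of genes per bin of 0.25, with more extreme values in the outermost bins. The ribosomal protein genes are shifted to the right, with a median of 1.09 for tumor 3 over tumor 1.

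In the large subunit, the highest mean FPKM belonged to Rpl17, Rplp0 and Rpl36. Rpl17 (ENSMUSG00000062328), whose protein lines the exit tunnel for the nascent chain, had 1281, 1495 and 2901 FPKM in tumors 1, 2 and 3. Rpl36 (ENSMUSG00000057863) had 583, 1988 and 2138 FPKM, so that tumors 2 and 3 were close and tumor 1 stood apart. Of all 150-base windows of the Rpl17 mRNA, 82.3% occur elsewhere in the genome, against 27.8% for Rpl36. The level of Rpl17 is therefore less certain.

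The lowest large subunit genes were Rpl35a, Rpl22, Rpl29 and Rpl34. Rpl35a, a gene of Diamond-Blackfan anemia, the inherited red cell aplasia caused by ribosomal protein mutations, had 65.7, 57.8 and 112 FPKM. Rpl29, which mice can lack and remain viable, had 31.3, 107 and 143 FPKM, and Rpl34 had 85.9, 113 and 198 FPKM. Each was highest in tumor 3, and tumor 1 was lowest for Rpl29 and Rpl34.

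The P stalk, which recruits the translation factors that hydrolyze GTP, is formed by Rplp0, Rplp1 and Rplp2. Rplp0 (ENSMUSG00000067274), the base of the stalk, had 1063, 1919 and 2667 FPKM, a mean of 1883 ± 803 (SD, n = 3). Rplp1 had 874, 1143 and 1803 FPKM, and Rplp2 had 281, 614 and 836 FPKM. All 3 genes were lowest in tumor 1 and highest in tumor 3, with a ratio of highest to lowest of 2.51, 2.06 and 2.97. Of the windows of their mRNAs, 7.61%, 12.0% and 9.33% occur elsewhere in the genome.

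Rpl5 and Rpl11 form a particle with the smallest rRNA of the large subunit and can bind Mdm2 when ribosome assembly is disturbed. Rpl5 had 265, 180 and 411 FPKM and was lowest in tumor 2. Rpl11 had 114, 312 and 502 FPKM and was lowest in tumor 1. These partners, which enter the ribosome together, thus differed in their order. Their ratio of tumor 2 to tumor 1 was 0.680 for Rpl5 and 2.73 for Rpl11. Of the windows of the Rpl5 and Rpl11 mRNAs, 45.9% and 57.7% occur elsewhere in the genome, so that their levels are less certain.

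Among the other large subunit genes with known roles, Rpl10, a late-joining protein mutated in some human T-cell leukemias, had 391, 803 and 1469 FPKM. Its gene lies on the X chromosome, and 93.4% of the windows of its mRNA occur elsewhere. Rpl38, known for its role in translation of Hox mRNAs, had 383, 1385 and 1649 FPKM, which placed tumors 2 and 3 well above tumor 1. Of the windows of the Rpl38 mRNA, 62.8% occur elsewhere. Rpl37 (ENSMUSG00000041841) had 190, 1228 and 1252 FPKM, a ratio of highest to lowest of 6.58 and nearly equal values in tumors 2 and 3.

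The main order, lowest in tumor 1 and highest in tumor 3, held for 34 of the 46 large subunit genes and 24 of the 30 small subunit genes. Highest in tumor 3 but lowest in tumor 2 were 8 large and 6 small subunit genes. Of all genes, 7.56% had the main order, and 15.7% were highest in tumor 3 whichever tumor was lowest. The 4 remaining genes, named after their values were seen, were not highest in tumor 3. Rpl24 and Rpl35 were highest in tumor 1, with 409, 192 and 307 FPKM for Rpl24 and 407, 226 and 375 FPKM for Rpl35. Rpl8 and Rpl13 were highest in tumor 2, with 841, 1822 and 1709 FPKM for Rpl8 and 357, 624 and 610 FPKM for Rpl13, so that tumors 2 and 3 were close. Rpl24 overlaps a gene model on the same strand, Gm28037, which held 646, 302 and 478 FPKM. On the opposite strand, Rpl35 overlaps Wdr38, with 48.3, 28.2 and 45.1 FPKM, and Arpc5l, with 12.9, 19.1 and 17.6 FPKM. Rpl13 overlaps Gm20388 on the same strand, with 16.1, 19.4 and 17.5 FPKM. The reads of such overlapping genes cannot be told apart in the deposited values.

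The large subunit genes with the most even levels were Rpl28 and Rpl7a. Rpl28 had 195, 199 and 254 FPKM, a mean of 216 ± 33.0 (SD, n = 3), and its highest tumor was 1.30 times its lowest. Rpl7a had 347, 357 and 483 FPKM, a ratio of 1.39. Both were still highest in tumor 3.

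In the small subunit, Rps15 (ENSMUSG00000063457), whose protein is needed for export of the subunit precursor from the nucleus, had the highest mean of all 83 genes. It had 1060, 2718 and 3490 FPKM, a mean of 2423 ± 1242 (SD, n = 3). Rps21 (ENSMUSG00000039001) had 339, 1777 and 2623 FPKM, and its ratio of highest to lowest tumor, 7.75, was the largest of the 80 genes that averaged at least 1 FPKM. Both were lowest in tumor 1 by a wide margin. No window of either mRNA was found elsewhere in the genome.

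Rps29 and Rps23 also differed strongly. Rps29, a small zinc-binding protein and another Diamond-Blackfan anemia gene, had 69.1, 277 and 490 FPKM, a ratio of 7.09. Rps23, which sits at the decoding center, had 324, 978 and 1916 FPKM, a ratio of 5.91. In both genes each tumor stood apart from the next. Of the windows of the Rps23 mRNA, 45.6% occur elsewhere in the genome, and a larger part of those of Rps29, so that their levels are less certain.

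Rps6, the substrate of the S6 kinases downstream of mTOR, had 614, 864 and 1424 FPKM, and 94.0% of the windows of its mRNA occur elsewhere. Rps14, which is haploinsufficient in a human myelodysplastic syndrome, had 446, 691 and 911 FPKM. Rps26, also linked to Diamond-Blackfan anemia, had 279, 534 and 577 FPKM. All of these were lowest in tumor 1 and highest in tumor 3.

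Rps19, the gene mutated most often in Diamond-Blackfan anemia, had the lowest mean FPKM in the small subunit. Its values were 90.8, 115 and 263 FPKM, so that tumor 3 stood apart from the others. Rps27a, which is made as a fusion with ubiquitin, had 267, 286 and 496 FPKM and the same order. Of the windows of the Rps27a mRNA, 76.6% occur elsewhere in the genome.

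Levels of different genes depend on the length used for scaling. Merged exons include retained introns and long alternative ends, and for 20 of the 76 subunit genes they were at least 3 times as long as the principal mRNA. Scaled to the merged exons, the 90th percentile of the subunit genes was 8.74, 9.65 and 6.91 times the 10th in tumors 1, 2 and 3. Scaled to the principal mRNA, it was 3.81, 7.12 and 6.73 times. The spread among subunit genes, whose proteins are needed in similar amounts, was thus smaller with mRNA length in tumors 1 and 2. It fell most in tumor 1 and hardly changed in tumor 3. The merged exons of Rps24, an example chosen after its values were seen, span 6256 bases and its principal mRNA 519 bases. It had 196, 114 and 202 FPKM, but ranked 11 of 83 by reads per kilobase of mRNA. The annotated principal mRNA is itself uncertain for some genes, such as Rps15a with 5179 bases. Ratios between tumors within a gene do not depend on length.

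Among the paralogs, Rpl22l1 showed the largest change in balance, measured in percentage points of the pair. Rpl22, which is needed for development of T cells with an alpha-beta receptor and is lost in some T-cell leukemias, had 53.5, 81.1 and 143 FPKM in tumors 1, 2 and 3. Rpl22l1 (ENSMUSG00000039221), which can take its place in the ribosome, had 58.6, 10.3 and 38.2 FPKM. Rpl22 was thus highest in tumor 3, and Rpl22l1 was highest in tumor 1 and lowest in tumor 2.

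Of the FPKM of the pair, Rpl22l1 held 52.3% (95% Wilson interval 51.2 to 53.3) in tumor 1. It held 11.3% (10.3 to 12.3) in tumor 2 and 21.1% (20.3 to 22.0) in tumor 3. The mean was 28.2% ± 21.4 (SD, n = 3), and none of these intervals overlapped. Without tumor 1 the mean was 16.2%. The gene model Gm33051 on the opposite strand of Rpl22l1 had 105, 12.5 and 44.5 FPKM in the same order, and reads of this pair cannot be told apart without strand. With reads scaled to the principal mRNA the share was 39.1%, 6.93% and 13.6%, again highest in tumor 1 and lowest in tumor 2.

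Rps27l, a target gene of p53, had 75.0, 19.3 and 58.5 FPKM, and its parent Rps27 had 938, 370 and 1056 FPKM. Both were lowest in tumor 2, where Rps27 had 0.395 times its FPKM of tumor 1. The share of Rps27l in the pair was 7.40% (7.09 to 7.73), 4.94% (4.43 to 5.52) and 5.25% (4.94 to 5.57), so that tumor 1 stood above tumors 2 and 3, whose intervals overlapped. With reads scaled to the principal mRNA the shares were 4.15%, 2.74% and 2.91%. Of the windows of the Rps27 mRNA, 99.5% occur elsewhere in the genome, whereas none of Rps27l did. The level of Rps27 is therefore uncertain.

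Rpl36al, an intronless copy of Rpl36a, had 88.1, 69.0 and 115 FPKM, while Rpl36a on the X chromosome had 221, 370 and 887 FPKM. The share of the copy was 28.5% (27.7 to 29.3), 15.7% (15.1 to 16.4) and 11.5% (11.1 to 11.8). Rpl36a is part of the pair and varied more than its copy, with a ratio of highest to lowest of 4.01 against 1.66. The share was thus highest where Rpl36a was lowest, and lowest where Rpl36a was highest. Rpl36al itself was highest in tumor 3, as was Rpl36a. Of the windows of the Rpl36a mRNA, 90.4% occur elsewhere in the genome, and 35.5% of those of Rpl36al, so that these shares are uncertain. Rpl36al overlaps the gene model AC099934.3 on the same strand, with 94.9, 79.9 and 127 FPKM.

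Rpl7l1, a nucleolar relative of Rpl7, was the most even of the 80 genes. It had 16.9, 15.1 and 16.4 FPKM, a ratio of highest to lowest of 1.12, while Rpl7 had 338, 290 and 570 FPKM. Its share of the pair was 4.76% (4.55 to 4.98), 4.96% (4.67 to 5.27) and 2.80% (2.65 to 2.96), with tumor 3 below the others. Scaled to the principal mRNA, it was 2.82%, 2.94% and 1.64%.

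The tissue-restricted paralogs were near or at the limit of detection. Rpl39l, known from testis, had 13, 0 and 6 reads in tumors 1, 2 and 3, while Rpl39 had 331, 503 and 996 FPKM. The share of Rpl39l was 0.153% (0.0897 to 0.262) in tumor 1 and 0.0349% (0.0160 to 0.0761) in tumor 3. With reads scaled to the principal mRNA, it was 0.0677% in tumor 1 and 0.0154% in tumor 3. A count of 0 in tumor 2 allows up to 0.190 FPKM. Rpl3l, the muscle form of Rpl3, had 1 read in each tumor beside 246, 276 and 386 FPKM of Rpl3. Rpl10l, the testis form of Rpl10, had 0 reads in each tumor, which allows up to 0.0954, 0.155 and 0.141 FPKM.

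**Figure D3:**
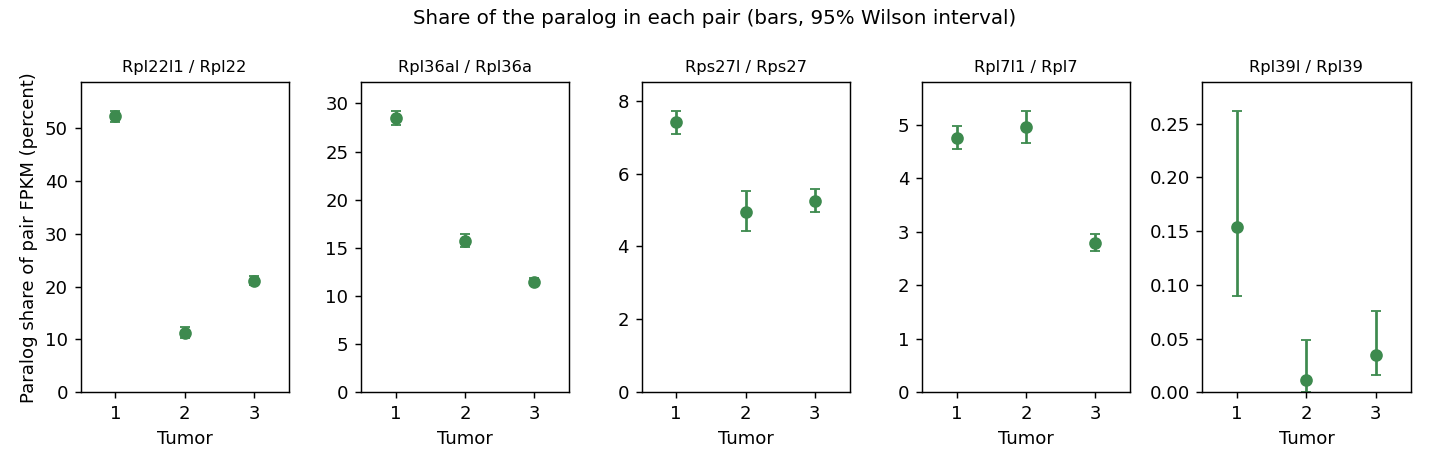
Share of the paralog in the FPKM of paralog and parent, in percent, for 5 pairs in tumors 1, 2 and 3, each with its own axis starting at 0. Bars are 95% Wilson intervals on recovered reads, and Rpl22l1 spans 11.3% in tumor 2 to 52.3% in tumor 1.

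Some start sites are shown because a pyrimidine run at the start is a known feature of many ribosomal protein mRNAs. They are those of Rps15, Rplp0 and Rps21, which had high levels, and of the paralog pairs of Rpl22, Rpl39 and Rps27. The sequences are from RefSeq on GRCm38.p6 and cover 15 bases before and 15 bases from the annotated start site. They are written 5′ to 3′ on the strand of the gene, and the longest run of C and T in each window is in capitals.
Rps15: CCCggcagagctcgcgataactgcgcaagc
Rplp0: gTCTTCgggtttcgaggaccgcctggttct
Rps21: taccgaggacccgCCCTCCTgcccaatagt
Rpl22: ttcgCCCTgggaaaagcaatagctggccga
Rpl22l1: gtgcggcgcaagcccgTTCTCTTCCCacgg
Rpl39: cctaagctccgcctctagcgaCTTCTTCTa
Rpl39l: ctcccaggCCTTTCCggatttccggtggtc
Rps27: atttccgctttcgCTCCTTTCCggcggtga
Rps27l: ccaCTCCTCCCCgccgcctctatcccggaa

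These windows lie at chr10:80292416-80292445 (Rps15, plus strand), chr5:115559452-115559481 (Rplp0, plus strand) and chr2:180257364-180257393 (Rps21, plus strand). Those of the first paralog pair lie at chr4:152325711-152325740 (Rpl22, plus strand) and chr3:28805493-28805522 (Rpl22l1, plus strand). Those of Rpl39 and Rpl39l lie at chrX:37085208-37085237 (minus strand) and chr16:10170213-10170242 (plus strand). Those of Rps27 and Rps27l lie at chr3:90213634-90213663 (minus strand) and chr9:66946071-66946100 (plus strand). By the RefSeq start, each window holds the end of the promoter and the first bases of the first exon. By the bounds of the genes used for expression, the windows of Rps15 and Rpl22 lie before the gene. Those of Rpl22l1 and Rpl39 lie wholly inside it. The RefSeq start was within 3 bases of the start of the GENCODE principal transcript for Rplp0, Rps21, Rpl39l, Rps27 and Rps27l. It was 22 bases away for Rps15, 72 for Rpl22l1, 127 for Rpl22 and 180 for Rpl39.

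The run was 7 bases long for Rps21 and 9 for Rps27, starting 2 bases before the annotated start site in both. Rpl22l1 had the longest run of those shown, 10 bases. The capitals of Rps15, Rplp0, Rpl22, Rpl39l and Rps27l begin well before the annotated start, by 15, 14, 11, 7 and 12 bases. The runs of Rps15, Rplp0 and Rpl22 were only 3, 5 and 4 bases long, and these windows lacked the motif of a C followed by at least 4 pyrimidines. RefSeq windows were found for 63 of the 83 genes, and that motif was found on the sense strand in 37 of them, or 58.7%, against 36.5% of 27025 genes. The letters CTTTC, which overlap that motif, were found in 16 of the 63, or 25.4%, against 4.01% of all genes. A run of at least 8 pyrimidines was found in 25, or 39.7%, against 11.8% of all genes. These matches were counted anywhere in the 30 bases, also before the annotated start. They are not shares of mRNAs that begin with such a sequence.

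In the whole promoter of 300 bases, searched on both strands, CCGGAAG, the core bound by ETS factors, was found in 24 of the 63 genes, or 38.1%, against 9.23% of all promoters. AAGATGG, a form of the motif of YY1, was found in 9, or 14.3%, against 6.48% of all promoters. A match is a description of letters and not of binding. The 83 genes lie on 19 chromosomes, with 14 on chromosome 7, 8 on chromosome 17 and 4 on the X chromosome.

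Properties of the mRNA went along with part of the differences. The median mRNA length was 768 bases for the 80 genes and 2787 bases for 9816 other protein-coding genes. Across the 80 genes, which share libraries and are not independent, Spearman's rho of the tumor 3 over tumor 1 ratio with mRNA length was -0.29, and that of tumor 3 over tumor 2 with GC content was -0.54. The reverse pairs were weaker, with 0.17 for tumor 3 over tumor 1 with GC content and 0.04 for tumor 3 over tumor 2 with length. For tumor 2 over tumor 1, rho was 0.35 with GC content and -0.29 with length. Across the 9816 other genes, rho with GC content was 0.51, 0.24 and -0.42 for tumor 2 over tumor 1, tumor 3 over tumor 1 and tumor 3 over tumor 2, and rho with length was -0.12, -0.14 and 0.01.

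The 11 subunit genes with an mRNA under 500 bases had a median log2 ratio of tumor 3 over tumor 1 of 1.87, and the 65 longer ones had 1.09. Split at 700 bases, the gap was smaller, with 1.35 for the 31 shorter and 1.02 for the 45 longer subunit genes. The 84 other protein-coding genes under 500 bases had a median of 0.09, and the 9732 longer ones had -0.24. The shortest ribosomal protein mRNAs thus had the larger median, with Rps27 at 0.17, Rpl35a at 0.77 and Rplp1 at 1.05 as exceptions, and a smaller gap in the same direction was seen among the other genes. After a linear fit on GC content and mRNA length over the other genes, a correction chosen after seeing the data, the ribosomal protein genes were 1.25 above the others for tumor 3 over tumor 1. They were 0.49 above for tumor 2 over tumor 1 and 0.74 above for tumor 3 over tumor 2. The part of length and GC content in single genes was not tested.

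**Figure D4:**
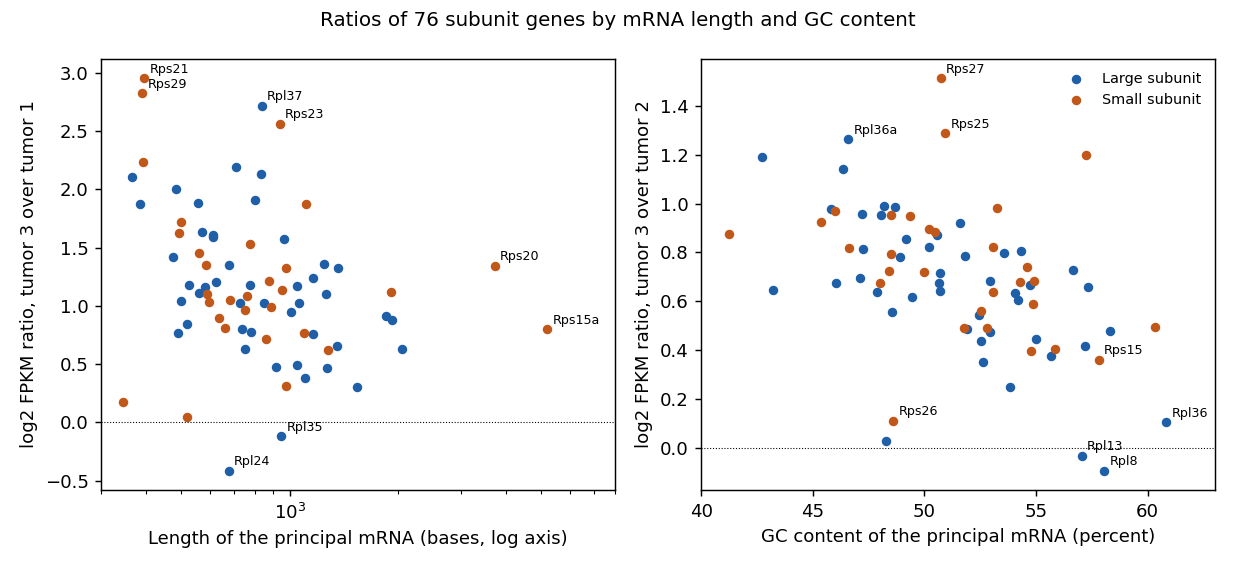
Log2 FPKM ratio of tumor 3 over tumor 1 against mRNA length (left, log axis) and of tumor 3 over tumor 2 against GC content (right) for the 76 subunit genes, each point 1 gene. Rps21 and Rps29 are short and high on the left, and GC-rich genes such as Rpl8 and Rpl13 lie lowest on the right.

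Ribosomal protein genes are known for their many processed pseudogenes, which can share reads with them. Of the 83 genes, 12 had no 150-base window elsewhere in the genome and 24 had over 50% of their windows elsewhere. Across the 80 genes, rho of the share of such windows with the log2 ratio was 0.04 for tumor 2 over tumor 1, 0.02 for tumor 3 over tumor 1 and -0.05 for tumor 3 over tumor 2. Among 31 genes with few copied windows, 28 were highest in tumor 3. The share of copied windows thus did not go along with the ratios, and how reads of copies were placed was not tested.

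Subunit proteins whose symbols fall outside the naming rule were compared with the others. Fau, which is fused to a ubiquitin-like protein, had 459, 695 and 999 FPKM. Rpsa had 485, 541 and 871 FPKM, and Rack1 had 174, 223 and 329 FPKM. All 3 were lowest in tumor 1 and highest in tumor 3, and their median log2 ratio of tumor 3 over tumor 1 was 0.92.

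Other genes of the translation machinery differed less from all genes, of which 15.7% were highest in tumor 3 and 50.6% in tumor 1, with a median log2 ratio of tumor 3 over tumor 1 of -0.24. Of 13 translation factors with TOP mRNAs, 7 were highest in tumor 3, and their median was 0.29, above that of all genes and below that of the subunit genes. Eef1a1, the elongation factor that delivers aminoacyl-tRNA, had 2891, 2201 and 3813 FPKM, the highest mean of all genes. Tpt1 had 698, 962 and 1880 FPKM and was the only one of the 13 with a ratio of at least 2. Of 35 ribosome biogenesis genes, 10 were highest in tumor 3 and 22 in tumor 1, with a median log2 ratio of -0.19, close to that of all genes. Npm1 had 290, 176 and 337 FPKM, Ncl had 66.6, 45.8 and 60.0 FPKM, and Wdr12 varied most, with 5.34, 1.24 and 2.08 FPKM.

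The 78 mitochondrial ribosomal protein genes had a median log2 ratio of tumor 3 over tumor 1 of -0.11, also near the -0.24 of all genes, and 17 of them were highest in tumor 3. Mrpl52, at 18.4, 37.2 and 50.6 FPKM, was the highest of them and had the largest ratio, while Mrpl18 had 33.8, 27.4 and 33.8 FPKM. The shift of the cytosolic genes between tumors 1 and 3 was thus not seen in the median of the mitochondrial list. For tumor 3 over tumor 2, the median was 0.24 for the mitochondrial list and 0.33 for ribosome biogenesis. It was 0.28 for the translation factors and 0.63 for the T-cell markers. These medians lay above the -0.06 of all genes and below the 0.67 and 0.73 of the large and small subunit genes. Of 12 regulators of ribosomal protein expression, tumor 1 had the highest value for 4, tumor 2 for 6 and tumor 3 for 2, and Myc had 55.2, 38.0 and 30.4 FPKM. Mtor had 2.10, 4.03 and 3.11 FPKM, Larp1 had 35.3, 29.6 and 24.1 FPKM, Pdcd4 had 55.3, 40.6 and 69.1 FPKM, and Eif4ebp1 had 0.652, 1.92 and 1.43 FPKM. Myc and Larp1 were thus highest in tumor 1, as were 50.6% of all genes, and Mtor and Eif4ebp1 were highest in tumor 2.

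**Figure D5:**
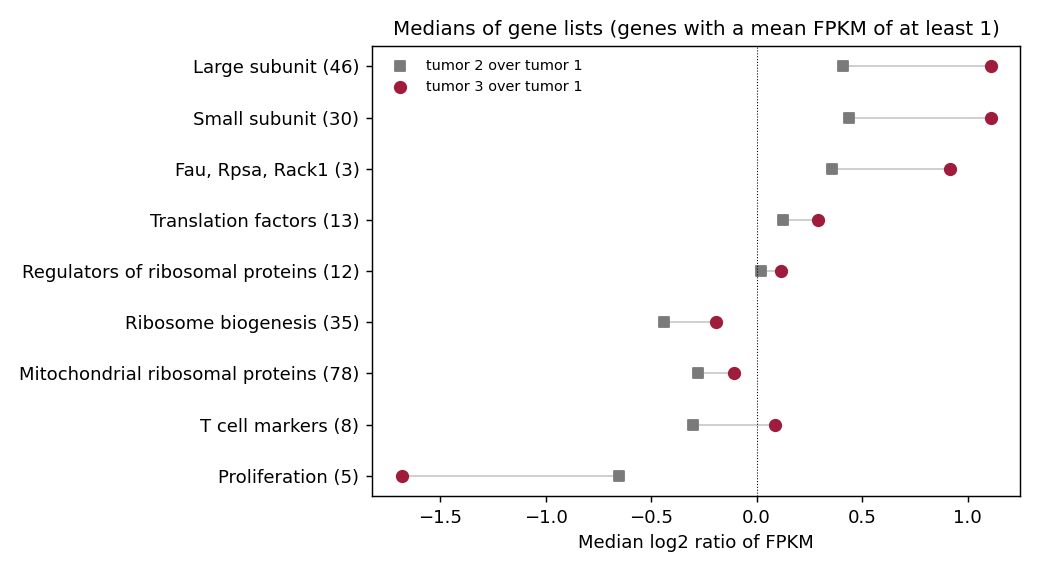
Median log2 ratio of FPKM for each gene list, tumor 2 over tumor 1 (gray squares) and tumor 3 over tumor 1 (red circles), with the number of genes averaging at least 1 FPKM in parentheses. The subunit lists lie at 1.11 for tumor 3 over tumor 1, and the proliferation list lies at -1.68.

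Markers of proliferation and of other cell types also differed between the tumors. None of 5 proliferation genes was highest in tumor 3, their summed FPKM was 194, 124 and 103, and Pcna, the most abundant, had 88.0, 55.9 and 63.6 FPKM, lowest in tumor 2. Mki67 had 38.7, 30.4 and 12.0 FPKM, and Ccnb1 had 7.81, 2.81 and 1.76 FPKM. The tumor with the highest ribosomal protein share thus had the lowest summed level of this list.

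All 5 B-cell markers were highest in tumor 3, with a summed FPKM of 56.2, 13.7 and 104, and Cd79a, at 23.1, 7.31 and 49.0 FPKM, was the most abundant. Cd79b had 20.1, 3.72 and 35.5 FPKM, and Ms4a1 varied most, with 3.98, 0.400 and 5.31 FPKM. Of the macrophage markers 0 of 5 were highest in tumor 3, with a sum of 335, 113 and 34.0 FPKM and Lyz2 at 215, 33.1 and 20.3 FPKM. C1qa, which varied most, had 74.5, 24.1 and 1.44 FPKM. Cd68, named after its values were seen, was instead highest in tumor 2, with 19.6, 51.2 and 9.27 FPKM. The neutrophil list summed to 37.3, 1.44 and 16.1 FPKM, led by S100a9 and S100a8, with Elane at 0 reads in every tumor. The erythroid list summed to 131, 27.1 and 3.43 FPKM, led by Hba-a1 and Hbb-bs, and all 3 of its genes were highest in tumor 1.

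The acinar list of the pancreas summed to 70.5, 386 and 0.603 FPKM, with all 6 genes highest in tumor 2, and Ctrb1 had 914, 3292 and 0 reads. Prss2 had 372, 805 and 3 reads. The fibroblast list summed to 9.86, 40.5 and 0.340 FPKM, led by Col1a1 and Col3a1, with 3 of 4 genes highest in tumor 2. The epithelial list summed to 14.2, 2.75 and 0.913 FPKM, of which Cdh1 had 13.7, 0.934 and 0.410 FPKM. Epcam, with 0.415, 1.14 and 0.307 FPKM, and Krt18 and Krt8, with at most 15 reads per tumor, were instead highest in tumor 2. The endothelial list summed to 13.5, 12.7 and 5.08 FPKM, led by Pecam1 and Cdh5. Tumor 3 was thus lowest for the macrophage, erythroid, acinar, fibroblast, epithelial and endothelial sums and highest for the B-cell sum. The part of these cell types in the ribosomal protein levels was not tested.

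Among measures of RNA content, the nuclear RNAs Malat1 and Neat1 had 52.4, 96.0 and 82.6 FPKM and 22.8, 31.3 and 11.7 FPKM, both highest in tumor 2. All 13 mitochondrially encoded genes had 0 reads in every tumor and could not serve as a measure of RNA quality. The share of genes without a read was 42.3%, 45.9% and 48.3% in tumors 1, 2 and 3. The part of RNA quality in the ribosomal protein levels was not tested.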

How the data were processed

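RNA-seq of 3 Dnmt3b+/- PTCL was paired-end with reads of 150 bases. The authors trimmed the reads, aligned them to mm10 with STAR, kept those mapped with a quality of 50 or more and quantified genes with SeqMonk, and they deposited FPKM on a linear scale, with tumors not pooled. The values hold the FPKM of 0.9 read for a gene without a read, which gave each library's depth, and reads were recovered with GENCODE M21 merged exon lengths for 34125 genes. Of these values, 93.0%, 93.1% and 93.1% lay within 0.05 of a whole read in tumors 1, 2 and 3. No count model was fitted to FPKM. The 3 bisulfite sequencing samples were not analysed here.

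The members and gene lists were chosen with earlier results of these data known. Comparisons used genes that averaged at least 1 FPKM and a 2-fold difference. Genes named in the text were the 5 highest and 5 lowest subunit genes, the 5 largest and 3 smallest ratios between tumors, paralogs with their parents, members with known roles and, from each other list, the 2 most abundant genes and the most variable one, besides Myc, Mtor, Larp1 and Mki67. Exceptions are marked. Of the listed genes, 2 are not reported here and were left out of their lists. Shares of paralog pairs have Wilson intervals on recovered reads, carried over by the ratio of exon lengths, at a confidence level of 95%. A count of 0 was taken to allow 3 reads. The principal mRNA was the GENCODE principal transcript. Sequences came from the RefSeq promoter table, with the start nearest to the GENCODE start. The alternatives were rescaling each tumor to a sum of 1000000, median-of-ratios factors, an average of at least 5 FPKM, ratios of 1.5 and 3, log2(FPKM + 1), recovered reads, subunit genes only, members without a named pseudogene in the deposited table, mitochondrially encoded genes left out, means for medians and each tumor left out in turn. After seeing the data, scaling to the principal mRNA, members with at most 20% copied windows, a correction for GC content and length, and both scalings of the median ratios not relative to all genes were added. Median-of-ratios factors were 0.905, 1.02 and 1.06. The steps were tested on simulated data. Python 3.11.15, pandas 2.3.3, NumPy 2.4.6, SciPy 1.17.1, numba 0.67.0 and matplotlib 3.10.9 were used.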

Additional observations from a re-analysis of the deposited data

How the results depend on the processing

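The median log2 ratios relative to all genes, in which a scaling factor per tumor cancels, were 0.49 to 0.59 for tumor 2 over tumor 1, 1.25 to 1.35 for tumor 3 over tumor 1 and 0.72 to 0.78 for tumor 3 over tumor 2 under every alternative run. Not relative to all genes, an addition made after seeing the data, the ratios of 0.40, 1.09 and 0.69 were 0.26, 0.85 and 0.58 with rescaling and 0.57, 1.33 and 0.75 with median-of-ratios factors. Of the 80 genes, 53 differed at least 2-fold, against 34.4% of all genes. This number was 35 with each tumor rescaled to the same sum, 67 with median-of-ratios factors, 77 with a ratio of 1.5 and 20 with a ratio of 3. It was 8 to 47 with each tumor left out in turn. Shares of all genes at these other settings were not counted, so that these counts cannot be set against all genes. Among the 31 genes with few copied windows, a smaller set chosen after seeing the data, 23 differed at least 2-fold, tumor 3 was highest for 28, tumor 1 for 2 and tumor 2 for 1. Highest in tumor 1 were 3 genes instead of 5 with median-of-ratios factors, 2 with subunit genes only and 7 with rescaling. Highest in tumor 2 were 5 genes instead of 2 with rescaling and 1 with median-of-ratios factors. In recovered reads the mean share of the ribosomal protein genes was 11.2%, not 21.9%, as reads are not scaled to length. The large over small subunit median, 0.987, was 1.02 with means, 0.998 with reads not scaled to length, 0.960 without the 9 members that have a named pseudogene in the deposited table (59 have one in GENCODE), 0.998 with reads scaled to mRNA length and 0.912 to 1.02 with a tumor left out. Except without tumor 2, these shifts passed an SD over the tumors of 0.00806, and their cause was not tested. The share of Rps27l was 3.26% instead of 5.87% with mRNA length. Leaving out mitochondrially encoded genes left the share at 21.9%, as they had 0 reads. No paired analysis was possible because there was a single group. Differences rest on 1 library per tumor and have no technical replicate, and Rpl39l, Rpl3l and Rpl10l were limited by depth.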
